A study of Mus musculus with 9 samples.

Results

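The BCL2 family decides whether the outer membrane of the mitochondrion stays intact, and through it whether a cell activates its caspases. Survival members (BCL2, BCL-XL, MCL1) hold the pore-forming effectors BAX and BAK in check, and the BH3-only proteins bind the survival members or the effectors and tip the balance towards death. In the marrow, BCL-XL is known as the survival protein of maturing red cell precursors and MCL1 as that of stem and myeloid progenitor cells. Taken here were the gene rows of 10 named family members, of 24391 gene rows in the table: the survival genes Bcl2, Bcl2l1 and Mcl1, the effectors Bax and Bak1, and the BH3-only genes Bbc3, Pmaip1, Bcl2l11, Bid and Bad. All 10 had a row, and all 10 passed the low-count filter that left 12573 genes for testing.

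Counts came from RNA-seq of bone marrow of C57BL/6 mice, 6 to 8 weeks of age, with AML1-ETO9a leukaemia, a model built on a truncated AML1-ETO fusion. Marrow cells had been sorted by CD43, a leukocyte sialoglycoprotein, and c-Kit, the stem cell factor receptor, into CD43++ckit+, CD43+ckit- and CD43-ckit- cells, with 3 libraries each. Each of these groups is leukaemic marrow, and no group without leukaemia is compared here. Whether the libraries of a population were made from different animals is not stated, so p-values reflect the spread among these libraries, which may be technical. Total counts were between 17966197 and 31781746 per library, lowest in the CD43-ckit- libraries. Kit lay at 146.0 to 175.5 CPM (read counts scaled for depth and composition by TMM, the trimmed mean of M-values) in CD43++ckit+ libraries, 7.80 to 21.0 in CD43+ckit- libraries and 18.9 to 42.1 in CD43-ckit- libraries. Spn, which encodes CD43, lay at 431.7 to 555.2, 137.2 to 232.5 and 71.7 to 180.1 CPM in the same order. Its RNA overlapped between CD43+ckit- and CD43-ckit- libraries and was not called there (log2 fold change 0.45 ± 0.33 SE, adjusted p = 0.269, edgeR). The summed level of 14 erythroid marker genes was 2950 to 3810 CPM in CD43++ckit+ libraries, 20900 to 24500 in CD43+ckit- libraries and 41900 to 68300 in CD43-ckit- libraries. Of these 14, all 14 were lower in CD43++ckit+ libraries than in CD43+ckit- libraries and 13 were lower than in CD43-ckit- libraries. For CD43+ckit- minus CD43-ckit-, 5 were lower, 1 was higher and 8 were not called (median log2 fold change -0.38). The 11 neutrophil markers summed to 96.6 to 6120, 495.0 to 3770 and 3890 to 17400 CPM in the same order, and none of these markers was at 0 throughout a population. In sorted but still mixed populations, fewer cells of one type and less RNA per cell cannot be told apart.

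The promoters of the genes that set the populations apart are shown first, each from 250 bases before to 50 bases after an annotated start. RefSeq promoter windows on GRCm38.p6 were matched by symbol for 9 of the 10 members, in 15 windows. Windows of Bcl2l1 and Bbc3 are given because these genes had parallel profiles, and that of Bcl2 because its profile ran the other way from CD43++ckit+ to CD43+ckit-. Bcl2 is at chr1:106714241-106714540, minus strand. The Bcl2l1 window shown is at chr2:152828440-152828739, minus strand, and the Bbc3 window at chr7:16310011-16310310, plus strand. Bcl2l1 and Bbc3 had 3 windows each, and the window shown was the only window of its gene that held a searched motif. Capitals mark a match to a motif searched on both strands.
Bcl2: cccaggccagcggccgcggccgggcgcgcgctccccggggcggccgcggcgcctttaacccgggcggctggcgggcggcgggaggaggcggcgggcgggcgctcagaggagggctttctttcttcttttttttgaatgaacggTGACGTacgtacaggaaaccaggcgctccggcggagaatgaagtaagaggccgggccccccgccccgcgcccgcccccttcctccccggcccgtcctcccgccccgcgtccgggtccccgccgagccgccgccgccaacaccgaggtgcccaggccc
Bcl2l1: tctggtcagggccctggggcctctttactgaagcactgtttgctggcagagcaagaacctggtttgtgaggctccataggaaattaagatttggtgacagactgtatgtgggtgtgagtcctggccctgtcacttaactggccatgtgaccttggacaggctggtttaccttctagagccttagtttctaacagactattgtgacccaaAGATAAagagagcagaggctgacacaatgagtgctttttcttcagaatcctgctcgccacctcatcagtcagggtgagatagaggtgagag
Bbc3: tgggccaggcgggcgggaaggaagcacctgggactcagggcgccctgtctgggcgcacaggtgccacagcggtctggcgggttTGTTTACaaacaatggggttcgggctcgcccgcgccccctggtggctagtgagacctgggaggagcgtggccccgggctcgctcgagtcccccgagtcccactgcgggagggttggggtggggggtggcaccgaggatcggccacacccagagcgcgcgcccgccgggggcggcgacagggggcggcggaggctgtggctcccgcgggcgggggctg

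Searched for were the letters AGATAA and also TGATAA for the GATA motif. The STAT motif was spelled TTCNNNGAA. The FOXO motif was spelled GTAAACA. The ATF/CRE motif was spelled TGACGT. No matches overlap in the windows shown. GATA motifs are bound by GATA1 in red cell precursors and FOXO motifs by FOXO3, a known activator of Bbc3 and Bcl2l11. Of 32851 RefSeq promoter windows of this length, 18.6% held the GATA letters, 8.30% the STAT letters, 3.65% the FOXO letters and 7.51% the ATF/CRE letters. One of 3 Bcl2l1 windows held AGATAA, starting at position -41 from the annotated start. FOXO letters were found in 1 of 3 Bbc3 windows, starting at -167, and in 1 of 2 Bcl2l11 windows, starting at -227. The only ATF/CRE match was in the Bcl2 window at -107, and no member window held the STAT letters. A match describes letters in a window and is not evidence of binding.

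The survival genes ran in opposite directions between the first populations: Bcl2 was higher in CD43++ckit+ libraries than in CD43+ckit- libraries, while Bcl2l1 and Mcl1 were lowest in CD43++ckit+ libraries and highest in CD43-ckit- libraries. Bcl2, which encodes the founding survival protein and is the target of venetoclax, had 9.93, 10.3 and 8.02 CPM in CD43++ckit+ libraries, against 0.471, 1.51 and 1.86 CPM in CD43+ckit- libraries and 2.28, 5.24 and 5.81 CPM in CD43-ckit- libraries. No library of one population overlapped with another population. The CD43+ckit- values rested on 14, 45 and 58 reads, the thinnest evidence among the survival genes. Bcl2 was 7.33-fold higher in CD43++ckit+ libraries than in CD43+ckit- libraries (log2 fold change 2.87 ± 0.52 SE, adjusted p = 0.00252, edgeR). Against CD43-ckit- the difference was 1.08 ± 0.48 and missed the threshold (adjusted p = 0.0728; 0.000384 to 0.184 over 18 alternatives). It passed in 6 of these: with library totals (1.93, adjusted p = 0.0106), without library 1 of CD43+ckit- (1.10, 0.0200), with the replicate block over all 9 libraries (1.25, 0.0268), with the 2 populations alone (0.98, 0.0477), with no low-count filter (1.20, 0.0497) and with each population's least correlated library left out (0.88, 0.000384). Same-numbered libraries, which that block joins, failed the pairing check for CD43++ckit+ described below. CD43+ckit- was lower than CD43-ckit- (-1.79 ± 0.50, adjusted p = 0.0161; 1.89e-08 to 0.0908 over 18 alternatives), a call lost without library 2 or 3 of CD43-ckit- (0.0507 and 0.0535) and with library totals (-1.18, 0.0908). Within both c-Kit-negative populations library 1 was lowest for Bcl2, as it was for Kit (7.80 CPM in CD43+ckit- libraries and 18.9 CPM in CD43-ckit- libraries) and for the neutrophil marker sum (495.0 and 3890 CPM). The monocyte and macrophage sum was lowest in library 1 of both as well (22.6 and 240 CPM). The erythroid sum (24500 and 68300 CPM) and the mast cell and basophil sum (838 and 1550 CPM) were instead highest there. The B-lineage sum was lowest in library 1 of CD43+ckit- (17.2 CPM) and highest in library 1 of CD43-ckit- (254 CPM). The part of any of these cells in the Bcl2 level was not tested.

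Bcl2l1, which encodes BCL-XL, had 88.4, 70.7 and 87.3 CPM in CD43++ckit+ libraries. It had 338.5, 546.8 and 389.9 CPM in CD43+ckit- libraries and 4193, 2793 and 2534 CPM in CD43-ckit- libraries. Each step separated the populations completely, and only 1.08% of tested genes had a larger log2 fold change between CD43++ckit+ and CD43-ckit-. Relative to CD43+ckit-, CD43++ckit+ was lower by a log2 fold change of -2.37 ± 0.25 SE (adjusted p = 0.000390), and relative to CD43-ckit- by -5.27 ± 0.29 (adjusted p = 1.90e-06). CD43+ckit- was lower than CD43-ckit- by -2.90 ± 0.26 (adjusted p = 6.98e-05). Gene counts do not separate the long survival isoform from the short pro-apoptotic isoform of Bcl2l1. The erythroid marker sum was lowest in CD43++ckit+ libraries and highest in CD43-ckit- libraries as well, although 8 of 14 erythroid markers were not called between CD43+ckit- and CD43-ckit-. The part of erythroid cells in the Bcl2l1 levels was not tested.

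Mcl1, a short-lived survival protein that must be resynthesised constantly, had 165.5, 170.9 and 179.0 CPM in CD43++ckit+ libraries. It had 311.1, 319.5 and 321.3 CPM in CD43+ckit- libraries and 634.1, 498.0 and 471.1 CPM in CD43-ckit- libraries. The populations did not overlap, but the differences were smaller than those of Bcl2l1. CD43++ckit+ was lower than CD43+ckit- (-0.89 ± 0.13, adjusted p = 0.00117) and than CD43-ckit- (-1.64 ± 0.14, adjusted p = 1.58e-05). For CD43+ckit- minus CD43-ckit- it was -0.75 ± 0.13 (adjusted p = 0.00185; 5.33e-13 to 0.468 over 19 alternatives), and with library totals it was -0.09 (adjusted p = 0.468).

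**Figure D1:**
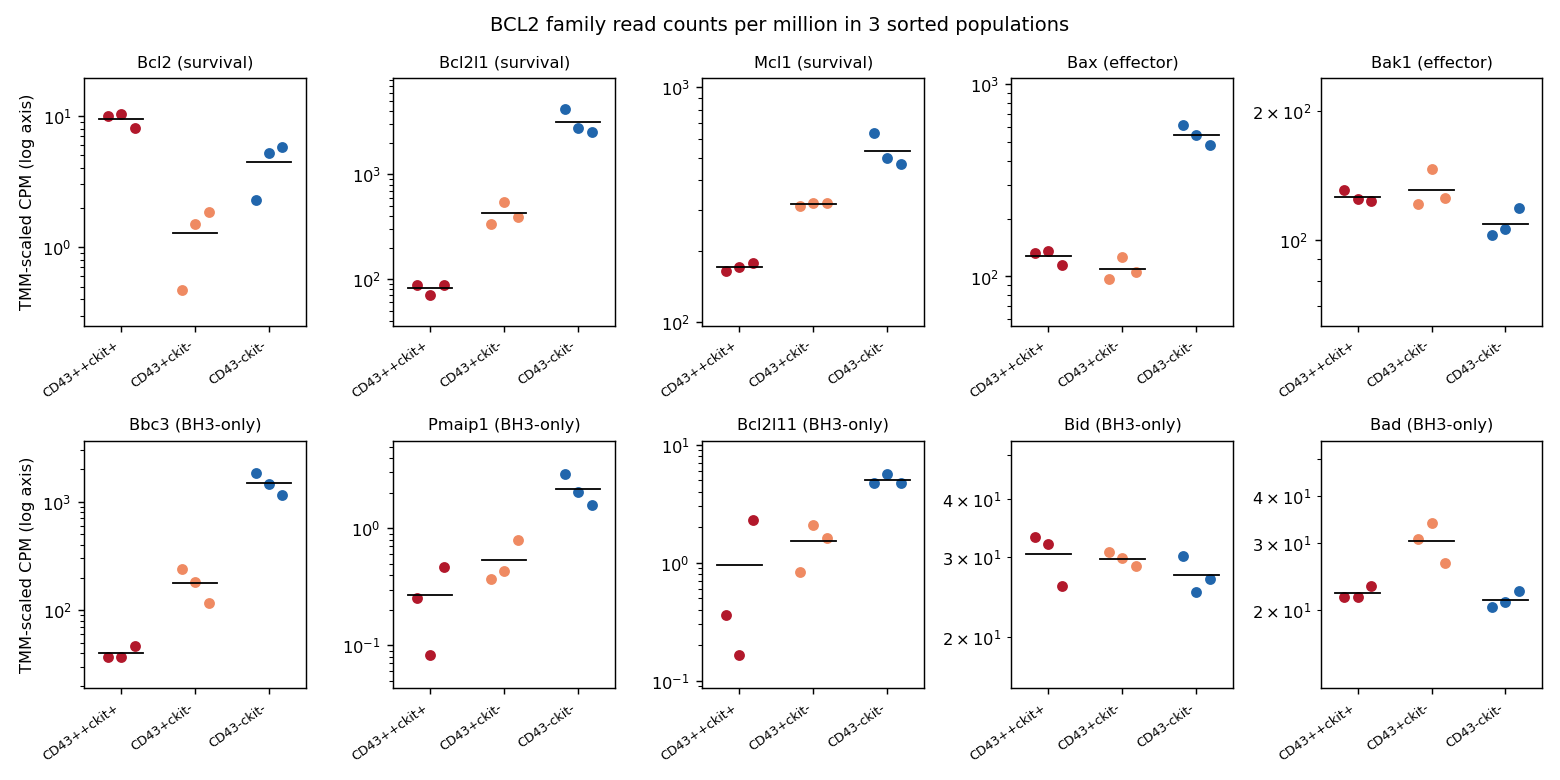
TMM-scaled CPM of the 10 BCL2 family genes on a log axis, 1 point per library and a bar at the mean, for CD43++ckit+, CD43+ckit- and CD43-ckit-. Bcl2 runs from 8.02 to 10.3 CPM in CD43++ckit+ libraries, above every other library, whereas Bcl2l1 and Bbc3 are at least 2534 and 1145 CPM in CD43-ckit- libraries and at most 88.4 and 47.0 CPM in CD43++ckit+ libraries.

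Because CPM per gene depends on transcript length, levels of different genes were set side by side per kilobase of exon (GENCODE M21 exon union, 1576 bases for Bax to 9157 for Bcl2). On this scale of level, Mcl1 made up 70.4% to 75.1% of the summed survival genes in CD43++ckit+ libraries, 43.9% to 55.2% in CD43+ckit- libraries and 16.9% to 19.9% in CD43-ckit- libraries. The share of Bcl2l1 was 23.2% to 28.0% in CD43++ckit+ libraries, 44.8% to 56.0% in CD43+ckit- libraries and 80.0% to 83.1% in CD43-ckit- libraries. The leading survival transcript was thus Mcl1 in CD43++ckit+ libraries and Bcl2l1 in CD43-ckit- libraries, while in CD43+ckit- libraries both averaged about the same (92.8 ± 1.59 CPM per kb for Mcl1 and 92.7 ± 23.7 for Bcl2l1, SD, n = 3). Bcl2 held 1.21% to 1.69% in CD43++ckit+ libraries and at most 0.113% in CD43+ckit- libraries and 0.0919% in CD43-ckit- libraries. In plain counts, with no length, Bcl2l1 led in each CD43+ckit- library, at 52.1% to 63.0% against 36.8% to 47.9% for Mcl1. The tie in CD43+ckit- libraries thus depended on the exon lengths used.

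**Figure D2:**
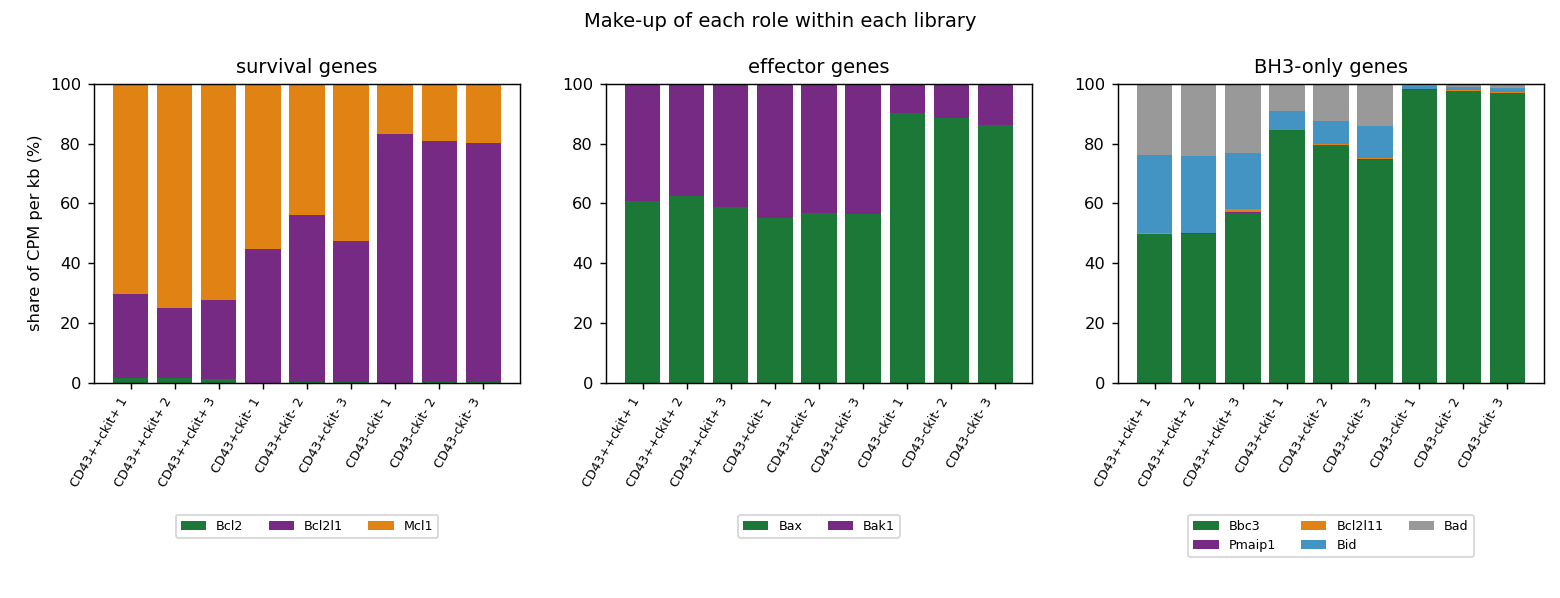
Stacked bars of the share of each gene, in percent of CPM per kb, within the survival genes, the effectors and the BH3-only genes, 1 bar per library. Bcl2l1 fills 23.2% to 28.0% of the survival bar in CD43++ckit+ libraries and at least 80.0% in CD43-ckit- libraries, Bax at least 86.2% of the effector bar in CD43-ckit- libraries, and Bbc3 at least 96.9% of the BH3-only bar there.

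Of the effectors, Bax was higher in CD43-ckit- libraries than in both other populations, and Bak1 did not pass the test in any comparison. Bax, whose product moves from the cytosol to mitochondria to form pores, had 132.2, 136.4 and 114.6 CPM in CD43++ckit+ libraries, against 97.3, 126.2 and 105.8 CPM in CD43+ckit- libraries and 611.9, 544.4 and 484.3 CPM in CD43-ckit- libraries. The first populations overlapped with each other and the third lay above both. CD43++ckit+ was lower than CD43-ckit- (-2.10 ± 0.15, adjusted p = 6.87e-06), and so was CD43+ckit- (-2.32 ± 0.15, adjusted p = 2.72e-05). For CD43++ckit+ minus CD43+ckit- the Bax difference was 0.22 ± 0.15 (adjusted p = 0.270), and 0.48 with library totals (adjusted p = 0.0115; 0.0115 to 0.578 over 19 alternatives). Overlap with another gene, Gm45808 on the same strand, covers 12.2% of the Bax exons.

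Bak1, the effector resident in the mitochondrial membrane, had 130.8, 124.6 and 123.1 CPM in CD43++ckit+ libraries. The CD43+ckit- libraries had 121.1, 146.7 and 125.3 CPM and the CD43-ckit- libraries 102.4, 106.0 and 118.9 CPM. All 9 values lay within a narrow band, with CD43-ckit- just below the other populations. Log2 fold changes were -0.06 ± 0.12 (CD43++ckit+ minus CD43+ckit-, adjusted p = 0.753), 0.21 ± 0.12 (CD43++ckit+ minus CD43-ckit-, adjusted p = 0.135) and 0.26 ± 0.12 (CD43+ckit- minus CD43-ckit-, adjusted p = 0.0837). Library totals in place of TMM moved the median of all genes by 0.27, 0.91 and 0.65 in these comparisons, and Bak1 then stood at 0.21, 1.11 and 0.90. The last 2 passed the threshold (adjusted p = 0.000182 and 0.00103; 0.000182 to 0.861 and 0.00103 to 0.647 over 19 alternatives each). Exons of Ggnbp1 on the other strand cover up to 18.2% of the Bak1 exons, so part of its count is uncertain.

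Among the BH3-only genes, Bbc3 showed the largest differences, Pmaip1 was lower in both other populations than in CD43-ckit- libraries at low levels, Bcl2l11 was lower in CD43++ckit+ libraries than in CD43-ckit- libraries by a call that 6 of 18 alternatives lost, Bad was highest in CD43+ckit- libraries, and Bid did not pass the test in any comparison. Bbc3 encodes PUMA, a p53 target that binds all the survival proteins. It had 37.5, 37.2 and 47.0 CPM in CD43++ckit+ libraries, against 240.0, 181.6 and 117.8 CPM in CD43+ckit- libraries and 1851, 1437 and 1145 CPM in CD43-ckit- libraries. As for Bcl2l1, no populations overlapped. CD43++ckit+ was lower than CD43+ckit- (-2.15 ± 0.28, adjusted p = 0.000654) and than CD43-ckit- (-5.19 ± 0.32, adjusted p = 2.94e-06). The step between CD43+ckit- and CD43-ckit- was -3.04 ± 0.29 (adjusted p = 9.50e-05). No other annotated exon overlaps Bbc3 or Bcl2l1 in GENCODE M21.

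Pmaip1, which encodes NOXA, the BH3-only protein that targets MCL1, was counted at 10, 3 and 21 reads in CD43++ckit+ libraries, 11, 13 and 25 in CD43+ckit- libraries and 37, 31 and 22 in CD43-ckit- libraries. On the CPM scale these were 0.256, 0.0821 and 0.469 in CD43++ckit+ libraries, 0.370, 0.436 and 0.801 in CD43+ckit- libraries and 2.91, 2.03 and 1.58 in CD43-ckit- libraries. CD43-ckit- lay above both other populations, which overlapped with each other. CD43++ckit+ was lower than CD43-ckit- (-2.97 ± 0.61, adjusted p = 0.00207), with counts close to the detection floor of 3 reads in library 2. CD43+ckit- was lower than CD43-ckit- (-2.01 ± 0.58, adjusted p = 0.0186; 1.42e-06 to 0.0820 over 18 alternatives). It missed the threshold without library 1 or 2 of CD43+ckit- (adjusted p = 0.0588 and 0.0607) or library 1 of CD43-ckit- (0.0575), and with library totals (-1.31, adjusted p = 0.0820). For CD43++ckit+ minus CD43+ckit- the difference was -0.97 ± 0.59 (adjusted p = 0.232; 0.00514 to 0.579 over 18 alternatives), and -1.84 without library 3 of CD43++ckit+ and library 1 of both others, the least correlated of each population (adjusted p = 0.00514).

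Bcl2l11 encodes BIM, which binds every survival protein and activates BAX and BAK, and is induced by FOXO3 on cytokine loss. It had 0.358, 0.164 and 2.32 CPM in CD43++ckit+ libraries, against 0.841, 2.08 and 1.64 CPM in CD43+ckit- libraries and 4.71, 5.63 and 4.74 CPM in CD43-ckit- libraries. Library 3 of CD43++ckit+ stood apart from its group and above all CD43+ckit- libraries. That library also had the highest neutrophil marker sum of its population (6120 CPM, against 358.0 and 96.6 in libraries 1 and 2), monocyte and macrophage marker sum (178.0 against 29.1 and 15.1), B-lineage marker sum (29.2 against 8.86 and 4.21) and T and NK cell marker sum (27.0 against 6.99 and 5.09). Against CD43-ckit-, 0 of 11 neutrophil and 2 of 10 monocyte and macrophage markers were called lower in CD43++ckit+ libraries. Their median log2 fold changes were still -2.80 and -1.89, so markers not called are not shown to be equal. Called lower were 11 of 11 B-lineage and 9 of 11 T and NK cell markers (medians -3.63 and -2.94), beside 27.7% of all tested genes. The part of such cells in the Bcl2l11 level was not tested. CD43++ckit+ was lower than CD43-ckit- (-2.39 ± 0.83, adjusted p = 0.0281; 5.91e-10 to 0.163 over 18 alternatives). The difference was not called once library 1 of CD43++ckit+ was left out (adjusted p = 0.0843), or library 1, 2 or 3 of CD43-ckit- (0.0569, 0.0662 and 0.0553), nor with library totals (-1.42, adjusted p = 0.163) or these 2 populations fitted alone (0.0592). For CD43++ckit+ minus CD43+ckit- the difference was -0.67 ± 0.80 (adjusted p = 0.556), and -2.51 without library 3 of CD43++ckit+ (adjusted p = 0.00417; 1.55e-06 to 0.876 over 18 alternatives). CD43+ckit- minus CD43-ckit- was -1.73 ± 0.81 (adjusted p = 0.0982; 9.30e-09 to 0.283 over 18 alternatives). It passed with these 2 populations fitted alone, both without blocks (-1.77, adjusted p = 0.00648) and with same-numbered libraries as blocks (-1.84, adjusted p = 9.30e-09). DESeq2 (-1.92, adjusted p = 0.0416) and the fits without library 2 or 3 of CD43++ckit+ (0.0437 and 0.00506) or without the least correlated libraries (0.000126) passed as well.

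Bid, cleaved by caspase 8 to link death receptors to mitochondria, ranged from 25.9 to 33.1 CPM in CD43++ckit+ libraries, 28.6 to 30.6 in CD43+ckit- libraries and 25.1 to 30.1 in CD43-ckit- libraries. The populations overlapped in every comparison, and log2 fold changes were 0.03 ± 0.14, 0.15 ± 0.14 and 0.12 ± 0.14 (CD43++ckit+ minus CD43+ckit-, CD43++ckit+ minus CD43-ckit- and CD43+ckit- minus CD43-ckit-; adjusted p = 0.879, 0.337 and 0.474). Bad, a BH3-only protein silenced by growth factor signalling through phosphorylation, had 21.7, 21.7 and 23.2 CPM in CD43++ckit+ libraries. It had 30.8, 33.9 and 26.7 CPM in CD43+ckit- libraries and 20.4, 20.9 and 22.5 CPM in CD43-ckit- libraries, so the middle population stood above both others. CD43++ckit+ was lower than CD43+ckit- (-0.46 ± 0.13, adjusted p = 0.0200; 0.00102 to 0.423 over 19 alternatives). This difference missed the threshold with library totals (adjusted p = 0.423), upper-quartile factors (0.0614) and these 2 populations alone with a replicate block (0.102), and without library 1 or 2 of CD43++ckit+ (0.0783 and 0.0861) or library 1 or 2 of CD43+ckit- (0.0554 and 0.123). CD43+ckit- was higher than CD43-ckit- (0.52 ± 0.13, adjusted p = 0.00979; 0.000455 to 0.0702 over 19 alternatives), a call lost without library 2 of CD43+ckit- (0.0675), with DESeq2 size factors (0.0702) and with the strict low-count filter (0.0522). For CD43++ckit+ minus CD43-ckit- Bad stood at 0.06 ± 0.13 (adjusted p = 0.690; 0.000701 to 0.998 over 19 alternatives). With library totals, which shift all genes as given for Bak1, it was 0.97 (adjusted p = 0.000701). Bid then also passed, at 1.07 for CD43++ckit+ minus CD43-ckit- (adjusted p = 5.83e-05; 5.83e-05 to 0.784) and 0.77 for CD43+ckit- minus CD43-ckit- (adjusted p = 0.000650; 0.000650 to 0.792). Bcl2l13 exons on the other strand cover 17.7% of the Bid exons, and Gpr137 exons 20.5% of the Bad exons, so the counts of both are partly uncertain.

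**Figure D3:**
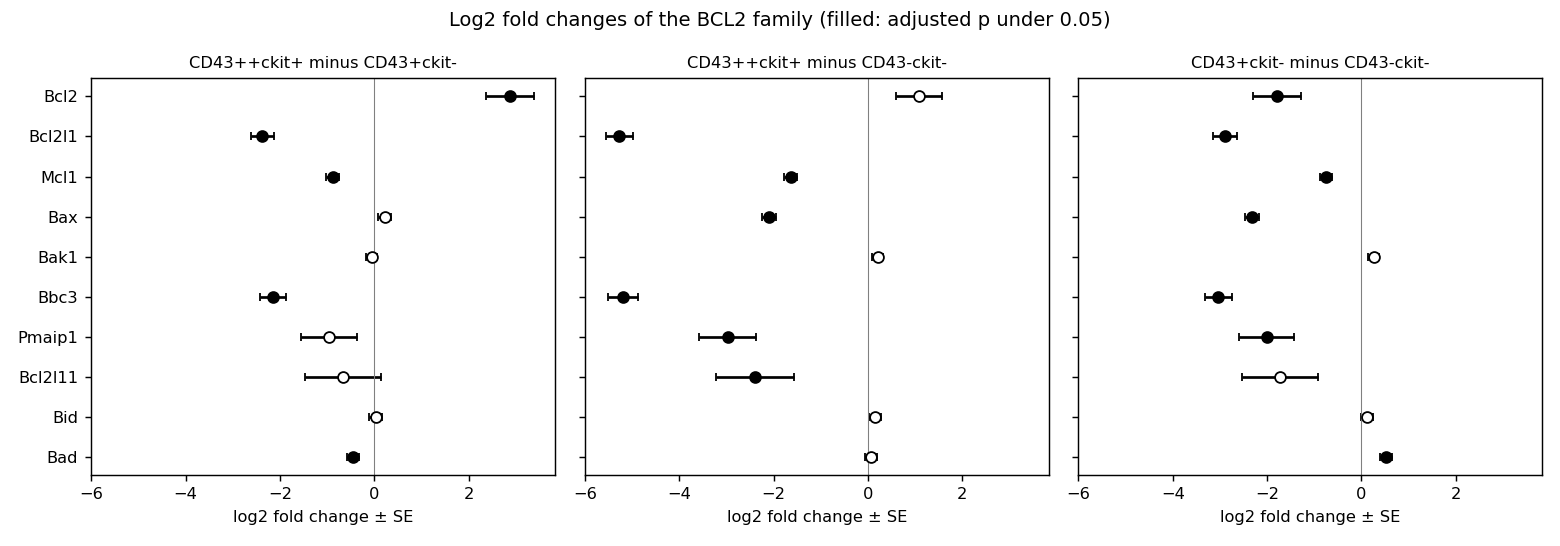
Log2 fold changes of the 10 genes with their standard errors in the 3 comparisons, filled where the adjusted p was under 0.05. Bcl2l1 and Bbc3 sit side by side near -5.27 and -5.19 for CD43++ckit+ minus CD43-ckit-, and Bid within 0.15 of 0 in each panel.

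Over the 10 members, 1 was higher and 4 were lower in CD43++ckit+ libraries than in CD43+ckit- libraries, where 39.8% of all tested genes were called, 19.7% higher and 20.1% lower. Between CD43++ckit+ and CD43-ckit-, 0 members were higher and 6 lower, where 67.4% of tested genes were called (39.7% higher, 27.7% lower, edgeR). At an unadjusted edgeR p under 0.05 the count of higher members was also 0, as it was with DESeq2, and Bcl2 came nearest with an unadjusted edgeR value of 0.0522. Between CD43+ckit- and CD43-ckit-, 1 member was higher and 6 were lower, where 51.9% of genes were called (31.0% higher, 20.9% lower). The joint test called 8 of 10 members, all but Bak1 and Bid, where it called 74.8% of genes. These counts of calls in either direction lie near the background. The median log2 fold change of the members was -0.56, -1.87 and -1.76 in the 3 comparisons, beside 0.01, 0.19 and 0.13 over all tested genes. Libraries of the populations compared did not overlap for 5, 8 and 9 members, beside 55.5%, 73.2% and 64.3% of tested genes.

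Ratios between genes of one library do not depend on how libraries are scaled. The log2 ratio of Bcl2 to Bcl2l1 reads was -3.15, -2.78 and -3.44 in CD43++ckit+ libraries, against -9.44, -8.49 and -7.70 in CD43+ckit- libraries and -10.8, -9.05 and -8.76 in CD43-ckit- libraries. CD43++ckit+ stood 42.8-fold above CD43+ckit- and 85.6-fold above CD43-ckit- in this ratio, and the c-Kit-negative populations overlapped. The mean log2 ratios lay 5.42 apart between CD43++ckit+ and CD43+ckit-, and 1.00 apart between the c-Kit-negative populations. The Mcl1 to Bcl2l1 ratio separated all populations: its log2 value averaged 1.07 ± 0.19 in CD43++ckit+ libraries, -0.39 ± 0.34 in CD43+ckit- libraries and -2.55 ± 0.16 in CD43-ckit- libraries (SD, n = 3).

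Bbc3 and Bcl2l1, a killer and a survival gene, kept a similar proportion. The log2 ratio of Bbc3 to Bcl2l1 reads was -1.24, -0.93 and -0.89 in CD43++ckit+ libraries, -0.50, -1.59 and -1.73 in CD43+ckit- libraries and -1.18, -0.96 and -1.15 in CD43-ckit- libraries. Populations overlapped in every comparison, and the means differed by at most 0.25, beside fold changes of -5.27 (Bcl2l1) and -5.19 (Bbc3) for CD43++ckit+ minus CD43-ckit-. CD43+ckit- had the widest spread, with library 1 highest. Bax behaved otherwise: Bax to Bak1 averaged 0.01 ± 0.12 in CD43++ckit+ libraries, -0.26 ± 0.05 in CD43+ckit- libraries and 2.32 ± 0.28 in CD43-ckit- libraries (log2, SD, n = 3), so the pair lay furthest apart in CD43-ckit- libraries, and no populations overlapped. Relative to Bcl2l1, Bax averaged 0.64 ± 0.28 in CD43++ckit+ libraries, -1.93 ± 0.16 in CD43+ckit- libraries and -2.51 ± 0.23 in CD43-ckit- libraries. These pairs were chosen with earlier results known and are given as description, with no test.

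**Figure D4:**
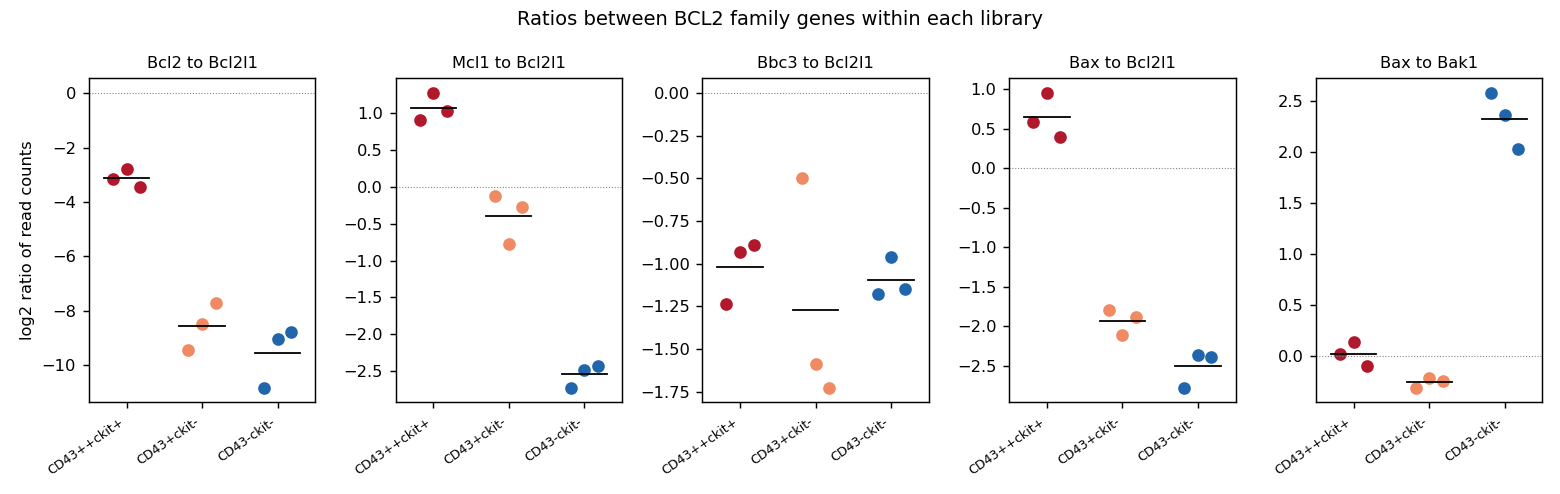
Log2 ratios of read counts of gene pairs within each library, 1 point per library and a bar at the mean. The Bcl2 to Bcl2l1 ratio is at least -3.44 in CD43++ckit+ libraries and at most -7.70 elsewhere, while Bbc3 to Bcl2l1 stays between -1.73 and -0.50 in all 9 libraries.

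In level per kilobase, the survival genes summed to 69.2 ± 2.89 in CD43++ckit+ libraries, 186.0 ± 24.6 in CD43+ckit- libraries and 849.0 ± 220.0 CPM per kb in CD43-ckit- libraries (SD, n = 3). The effectors summed to 133.0 ± 8.32, 124.0 ± 15.1 and 392.0 ± 37.1, and the BH3-only genes to 36.5 ± 2.14, 105.0 ± 29.8 and 713.0 ± 167.0, in the same order. The survival sum divided by the sum of all pro-apoptotic members was 0.384 to 0.444 in CD43++ckit+ libraries, 0.670 to 0.926 in CD43+ckit- libraries and 0.698 to 0.833 in CD43-ckit- libraries. CD43++ckit+ thus had the lowest ratio on this scale, without overlap, and the other populations overlapped. The ratio depends on the exon lengths used and was not computed in plain counts. Whether survival or pro-apoptotic transcripts prevailed within a population therefore cannot be read from it. In CD43++ckit+ the order of levels was Bax (81.1 ± 7.34), Bak1 (52.4 ± 1.70), Mcl1 (50.3 ± 1.99), Bbc3 (19.1 ± 2.64) and Bcl2l1 (17.9 ± 2.15 CPM per kb), where Bak1 and Mcl1, and Bbc3 and Bcl2l1, overlapped. In CD43-ckit- it was Bbc3 (695.7 ± 167.0), Bcl2l1 (692.0 ± 194.6), Bax (347.0 ± 40.5), Mcl1 (156.3 ± 25.6) and Bak1 (45.3 ± 3.60), and Bbc3 and Bcl2l1 again overlapped. Per kilobase, Bcl2 came last in CD43+ckit- libraries and CD43-ckit-, and in CD43++ckit+ libraries above Bcl2l11 and Pmaip1 alone. With no length, its mean was above that of Pmaip1 in CD43+ckit- libraries (1.28 against 0.536 CPM) and in CD43-ckit- libraries (4.44 against 2.17 CPM). In plain counts Bax held 48.2% to 52.3% of the effectors in CD43++ckit+ libraries, so its lead over Bak1 there depended on length. The top of both orders depended on length too. Mcl1 had the most reads in each CD43++ckit+ library (6464, 6247 and 8018, against 5163, 4985 and 5133 for Bax). Bcl2l1 had more reads than Bbc3 in each CD43-ckit- library (53371, 42668 and 35305 against 23562, 21956 and 15958).

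Genes with the profile most like that of a member, by Pearson r of log2 CPM over the 9 libraries among well-expressed genes, are a description of libraries that fall into 3 clusters. For Bcl2l1 they were Ube2o, a ubiquitin enzyme of red cell remodelling (r = 0.999; 135.9 CPM in CD43++ckit+ libraries, 1043 in CD43+ckit- libraries and 13230 in CD43-ckit- libraries), the erythroid factor gene Nfe2, Ube2v1 and the glucose transporter gene Slc2a1. For Bbc3 they were Phf1, Hmg20b, Nrtn and Prr14, and 675 of 5191 genes searched had r above 0.95. For Bcl2, 21 of 5192 did so, led by the histone variant gene H2afy (172.8, 47.1 and 106.1 CPM in the same order), Glud1, Tagln2 and Msn. For Bcl2l1, 662 of 5191 genes passed that value. Bcl2 had 14 to 81 reads in the c-Kit-negative libraries. The part of these low counts in its smaller number was not tested.

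Of 15 listed relatives 8 were tested, and 7 stayed under the low-count filter, among them the Bcl2a1 genes, Bok and Hrk. Against CD43-ckit-, 1 was higher and 4 were lower in CD43++ckit+ libraries (median -0.88), beside 39.7% higher and 27.7% lower over all tested genes; with library totals the count was 4 higher and 3 lower. Against CD43+ckit- it was also 1 and 4 (median -0.45), beside 19.7% and 20.1% of all genes. Bnip3l, the mitophagy receptor that clears mitochondria from reticulocytes, had 201.9, 218.7 and 156.0 CPM in CD43++ckit+ libraries, against 508.6, 348.9 and 378.8 in CD43+ckit- libraries and 1544, 1013 and 895.0 in CD43-ckit- libraries. It was lower in CD43++ckit+ libraries than in CD43-ckit- libraries (-2.58 ± 0.25, adjusted p = 4.18e-05), as were the BH3-only gene Bmf (-1.81 ± 0.20) and Bcl2l13 (-1.32 ± 0.17). Bcl2l12 was higher in CD43++ckit+ libraries than in CD43-ckit- libraries (1.46 ± 0.16, adjusted p = 6.33e-05).

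Downstream of mitochondria, 12 of 20 apoptosome, caspase and inhibitor genes were higher and 3 lower in CD43++ckit+ libraries than in CD43-ckit- libraries (median 0.93), beside 39.7% and 27.7% of all tested genes. With library totals the count was 18 higher and 1 lower, and with DESeq2 it was 11 higher and 5 lower. Against CD43+ckit-, 7 were higher and 3 lower (median 0.22), beside 19.7% and 20.1% of all genes, and with library totals 11 were higher and 2 lower. Diablo, an antagonist of caspase inhibitors, and Dffa, the inhibitor of the caspase-activated DNase, were higher in CD43++ckit+ libraries than in CD43-ckit- libraries (0.92 ± 0.10 and 1.40 ± 0.14). Htra2, a mitochondrial protease released in apoptosis, was lower (-1.47 ± 0.14, adjusted p = 3.71e-05). With library totals these differences were 1.83 for Diablo, 2.30 for Dffa and -0.54 for Htra2, with no change of direction.

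Of 18 tested transcription factors known to act on family genes, 7 were higher and 9 lower in CD43++ckit+ libraries than in CD43-ckit- libraries (39.7% and 27.7% of all tested genes), and 9 higher and 6 lower with library totals. Against CD43+ckit-, 5 were higher and 4 lower (19.7% and 20.1% of all genes). Myb, a known activator of Bcl2, had 280.8, 288.1 and 205.3 CPM in CD43++ckit+ libraries, against 52.5, 57.3 and 66.1 in CD43+ckit- libraries and 61.1, 79.6 and 77.2 in CD43-ckit- libraries. It was higher in CD43++ckit+ libraries than in CD43+ckit- libraries (2.14 ± 0.18, adjusted p = 0.000292). Foxo3, which activates Bbc3 and Bcl2l11, had 113.3, 121.7 and 125.7 CPM in CD43++ckit+ libraries, against 459.5, 448.3 and 384.8 in CD43+ckit- libraries and 2147, 1376 and 1070 in CD43-ckit- libraries. It was lower in CD43++ckit+ libraries than in CD43+ckit- libraries (-1.84 ± 0.24, adjusted p = 0.000639) and than in CD43-ckit- libraries (-3.67 ± 0.26, adjusted p = 5.60e-06). Atf4 and Ddit3, factors of the integrated stress response that can induce BH3-only genes, were also lower than in CD43-ckit- libraries (-2.79 ± 0.19 and -2.997 ± 0.27).

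Among 15 kinases and ubiquitin enzymes that act on family proteins, 5 were higher and 6 lower in CD43++ckit+ libraries than in CD43-ckit- libraries (39.7% and 27.7% of all tested genes). The count was 10 higher and 4 lower with library totals, and 3 higher and 8 lower with DESeq2. Pim1, a kinase that phosphorylates BAD, had 327.2, 244.2 and 151.9 CPM in CD43++ckit+ libraries, against 669.6, 658.0 and 576.1 in CD43+ckit- libraries and 6725, 4674 and 3877 in CD43-ckit- libraries. It was lower in CD43++ckit+ libraries than in CD43+ckit- libraries (-1.40 ± 0.29, adjusted p = 0.00513) and than in CD43-ckit- libraries (-4.40 ± 0.33, adjusted p = 8.68e-06). Pim2, Akt2 and Mapk3, which encodes ERK1, were lower than in CD43-ckit- libraries as well (-2.20 ± 0.26, -1.45 ± 0.16 and -1.75 ± 0.20).

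**Figure D5:**
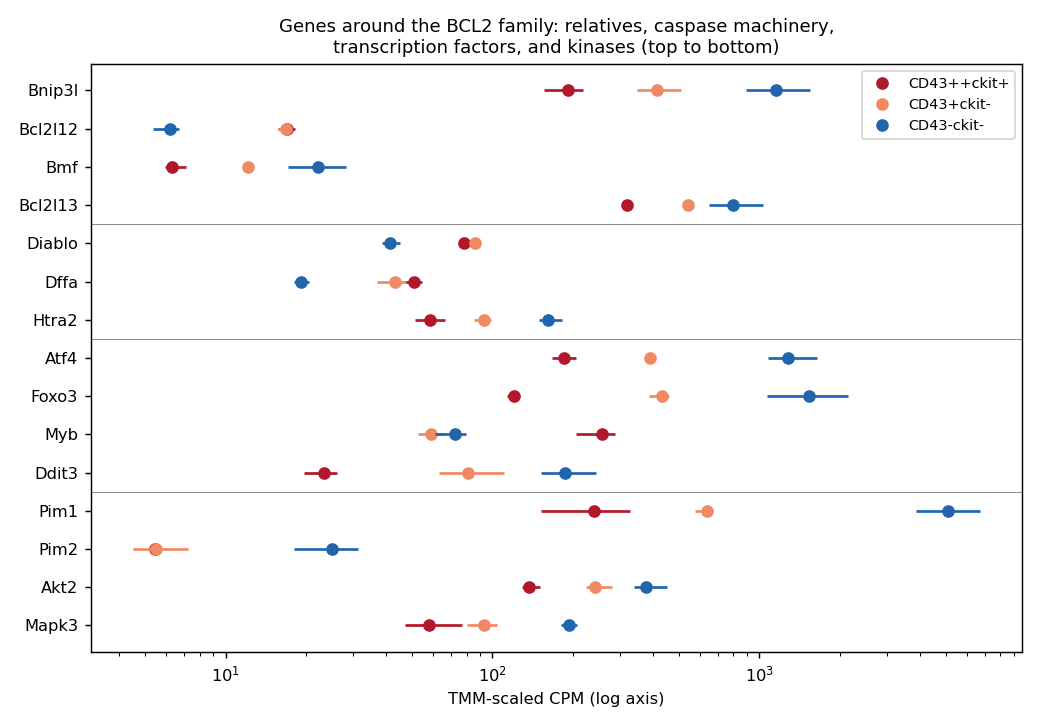
Mean TMM-scaled CPM (points, log axis) and range over 3 libraries (lines) of the 15 genes named from the lists of relatives, caspase machinery, transcription factors and kinases. Myb is rightmost in CD43++ckit+ libraries, while Foxo3, Atf4, Ddit3, Bnip3l and Pim1 are rightmost in CD43-ckit- libraries.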

How the data were processed

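The authors deposited whole-number counts of reads for each gene symbol and library, here 9 libraries. The submitters' processing notes name CASAVA 1.8, TopHat2 2.0.4, RSEM, HTSeq and edgeR without roles, and a human build although the symbols are mouse. How strand was handled, and which mouse build and annotation were counted, is not given in the sources used here. Promoter coordinates and exon lengths therefore belong to the reference tables (RefSeq GRCm38.p6, GENCODE M21) and not to the counts.

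Counts were scaled by TMM, filtered with filterByExpr (minimum count 10, minimum total 15) and fitted with edgeR 4.0.16 in R 4.3.3 by quasi-likelihood, as 3 group means over all 9 libraries. The call threshold was an adjusted p of 0.05 (Benjamini-Hochberg) over all 12573 tested genes. SEs were approximated by dividing the size of the log2 fold change by the root of F. Log2 ratios used a prior count of 0.5. Alternatives used library totals, DESeq2 size factors, upper-quartile factors, DESeq2 1.42.0, other low-count filters, fewer libraries, 2 populations alone and replicate blocks. No libraries were duplicates: chi-square values comparing pairs of a population were 15.2 to 117.5 per degree of freedom.

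The members and lists were chosen with earlier results of these data known. All members are named. Each list around the family gives the 4 genes of smallest joint adjusted p whose average log2 CPM reaches 1. One gene that this rule takes is not reported here. For Bcl2, Bcl2l1 and Bbc3 the 4 genes of most similar profile are named, among those whose average reaches 5, predicted and globin genes left out. The titles share replicate numbers. Deviations of same-numbered CD43+ckit- and CD43-ckit- libraries had correlations of 0.525, 0.366 and 0.303, each above the 0.1 set for pairing. Against CD43++ckit+ the correlations were -0.617 to 0.447, and those libraries failed this check. The main fit held no block. The replicate-block alternatives blocked same-numbered libraries in every comparison, also those with CD43++ckit+.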

Additional observations from a re-analysis of the deposited data

How the results depend on the processing

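Over all alternatives, 493 fold changes of members kept direction and side of the threshold, 24 lost a call, 24 gained one and 20 turned direction. Bcl2, Bcl2l1, Mcl1 and Bbc3 in CD43++ckit+ minus CD43+ckit-, Bcl2l1, Mcl1, Bax, Bbc3 and Pmaip1 in CD43++ckit+ minus CD43-ckit-, and Bcl2l1, Bax and Bbc3 in CD43+ckit- minus CD43-ckit- kept their calls in every alternative that tested them. The strict filter removed Bcl2, Pmaip1 and Bcl2l11, whose low counts limit their precision. DESeq2 size factors moved the median of all genes by -0.24 in CD43++ckit+ minus CD43-ckit- and by -0.20 in CD43+ckit- minus CD43-ckit-.

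Members called higher in CD43++ckit+ minus CD43+ckit- numbered 2 with library totals and 0 with the strict filter. Members called higher in CD43++ckit+ minus CD43-ckit- numbered 4 with library totals, 2 without each population's least correlated library, and 1 with no filter, with the replicate block over all 9 libraries and with 2 populations alone. For CD43+ckit- minus CD43-ckit- they numbered 3 with library totals (and 3 lower), 2 with no filter and without the least correlated libraries, and 0 with DESeq2 size factors and the strict filter, which called 4 members in that comparison and 5 in the joint test. Without the least correlated libraries 8557 genes were called in CD43++ckit+ minus CD43+ckit-, against 5005. Leaving out 1 library at a time gave 0 to 1 higher members in both comparisons with CD43-ckit-, and 3493 to 5919, 7366 to 9534 and 5080 to 7800 genes called in the 3 comparisons.

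Only values near 0 turned direction among members; the cause was not tested. For CD43++ckit+ minus CD43+ckit-, Bak1 was 0.211 with library totals, 0.018 with upper-quartile factors and -0.111 to 0.082 leaving out 1 library. Bid there was -0.012 with DESeq2 size factors and with DESeq2, and -0.032 to 0.134 leaving out 1 library. For CD43++ckit+ minus CD43-ckit-, DESeq2 size factors and DESeq2 gave -0.031 for Bak1, -0.089 for Bid and -0.18 for Bad. The strict filter gave -0.038 for Bid and -0.122 for Bad, and Bad was -0.032 with 2 populations alone and -0.034 with the replicate block added. For CD43+ckit- minus CD43-ckit-, Bid was -0.077 with both DESeq2 settings and -0.04 with the strict filter. Outside the members, library totals turned 2 differences of this comparison that the main edgeR fit had called. Bcl2l13 went from -0.564 (adjusted p = 0.0223) to 0.116 and Akt2 from -0.629 (adjusted p = 0.00959) to 0.038, and both calls were lost. For CD43+ckit- minus CD43-ckit-, the 2 populations alone with the replicate block called 8 members, against 7. The added member is Bcl2l11, which the 2 populations alone called without the block too. Same-numbered libraries passed the 0.1 set for pairing in this comparison, but pairing of libraries 2 and 3 was not shown.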
